A study of Mus musculus with 24 samples.

Results

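The cytosolic ribosomal protein genes encode the protein subunits of the ribosomes that translate nuclear mRNAs. They were taken by symbol: every symbol that starts with Rpl or Rps and a digit, plus Rplp0, Rplp1, Rplp2 and Rpsa, without the Rps6k kinases and the symbols with -ps (pseudogenes), and with a mean of at least 1 FPKM (fragments scaled to transcript length and to library depth) over the 24 libraries. Of 97 matching rows, 10 were Rps6k kinases and 3 were -ps symbols, and 4 fell below the minimum. The remaining 80 genes, 47 named for the large subunit and 33 for the small subunit, were described among 12572 genes tested and 15232 in the table. By the symbol rule 2 of the 80 are not core subunits: Rps19bp1 encodes a nucleolar protein that binds the Rps19 protein, and Rpl7l1 encodes a relative of Rpl7.

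Bulk polyadenylated RNA of the anterior cingulate cortex, a frontal area with a part in effort and reward choices, was sequenced from 24 mice, with 1 library per animal. By the labels, 8 wild-type (WT) mice and 8 Thbs1/2 knockout (KO) mice were left untrained, and 8 more KO mice were trained in operant (Skinner) boxes, for which they were food deprived. Every arm had 4 mice of either sex. Trained WT mice were not analysed here, so training could be compared only among KO-labelled animals, and training and food deprivation cannot be told apart. Strain and age are not given in the labels, and neither is the driver or extent of the deletion, beyond its name.

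Thbs1 and Thbs2, which encode the secreted matrix proteins thrombospondin-1 and -2, were higher in the KO-labelled libraries. Thbs1 lay between 0.254 and 0.716 FPKM in the untrained WT-labelled arm, between 2.77 and 5.04 in the untrained KO-labelled arm and between 3.62 and 5.91 in the trained arm. The labels do not say which exons are deleted. The direction goes against the genotype labels, so every arm is named here by its label. Recovered depth ran from 11910182 to 26369183 reads a library, and the members held 0.932% to 1.38% of the reads. Summed neuron markers were the highest of the 9 marker lists in every library (mean log2(FPKM + 1) 7.77 to 8.19). Untrained KO-labelled male library 3 stood apart, with the most reads, the highest striatal marker mean (5.79, against 2.59 to 4.90 in the other 23 libraries) and the lowest oligodendrocyte marker mean (5.54). It also had the highest septal marker mean (3.53, against 1.25 to 1.86 in the other 23) and the lowest neuron marker mean (7.77). Members held 1.33% of its reads, a share below only that of trained male 3 (1.38%). The labels' animal numbers were over 1000 for all 8 trained animals, for 2 untrained KO-labelled males and for 1 WT-labelled male, and under 1000 for the other 13; what the numbers stand for is not stated.

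Ribosomal protein mRNAs are among the most abundant in any cell, and the proteins are made in near equal numbers because each ribosome holds 1 copy of almost every one. Their mRNAs start with a short run of pyrimidines, the terminal oligopyrimidine (TOP) tract, through which mTORC1 and the RNA-binding protein Larp1 control their translation. In neurons some of these mRNAs are also found in axons and dendrites, where local translation takes place.

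The start-site sequences of a few picked members are shown, some with the string CTTTC near the start and some without. Members that changed between arms were found among both. RefSeq (GRCm38.p6) promoter entries of 300 bases, 250 before and 50 after the annotated start, matched 60 of the 80 members. The windows below run from 60 bases before the start to 20 bases after it, 5′ to 3′ on the gene's strand. Capitals mark CTTTC on the sense strand within 20 bases of the start, and CTTCCG on either strand, the core bound by ETS-family factors. These 2 motifs cannot share more than a few end bases. CTTTC is only 1 string that a pyrimidine run can hold. Rpl22l1, without it, has the run ttctcttccc just after its start, and in Rpl5 the CTTTC lies before the annotated start.
Rpl28, chr7:4792905-4792984, plus strand: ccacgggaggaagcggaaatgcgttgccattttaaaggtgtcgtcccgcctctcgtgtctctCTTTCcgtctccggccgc
Rpl35, chr2:39005112-39005191, minus strand: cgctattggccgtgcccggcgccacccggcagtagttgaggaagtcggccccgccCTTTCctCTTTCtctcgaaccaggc
Rpl38, chr11:114668520-114668599, plus strand: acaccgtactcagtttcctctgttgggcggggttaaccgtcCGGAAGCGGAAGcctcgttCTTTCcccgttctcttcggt
Rplp2, chr7:141447591-141447670, plus strand: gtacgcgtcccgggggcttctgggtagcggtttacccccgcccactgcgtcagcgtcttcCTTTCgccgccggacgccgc
Rpl5, chr5:107900468-107900547, plus strand: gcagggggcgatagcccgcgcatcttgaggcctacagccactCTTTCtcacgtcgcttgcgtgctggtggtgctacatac
Rpl37a, chr1:72711200-72711279, plus strand: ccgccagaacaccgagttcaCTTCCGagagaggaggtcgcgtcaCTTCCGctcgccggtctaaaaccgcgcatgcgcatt
Rpsa, chr9:120127706-120127785, plus strand: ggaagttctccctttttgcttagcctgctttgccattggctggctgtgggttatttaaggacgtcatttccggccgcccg
Rpl36al, chr12:69184048-69184127, minus strand: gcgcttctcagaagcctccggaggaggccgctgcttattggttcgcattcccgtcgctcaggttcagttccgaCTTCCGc
Rps19bp1, chr15:80264287-80264366, minus strand: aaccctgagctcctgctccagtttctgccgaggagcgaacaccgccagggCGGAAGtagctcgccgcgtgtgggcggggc
Rpl22l1, chr3:28805448-28805527, plus strand: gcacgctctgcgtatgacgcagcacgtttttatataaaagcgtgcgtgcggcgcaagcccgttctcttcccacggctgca

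CTTTC lay on the sense strand within 20 bases of the start in 17 of the 60 members (28.3%), against 6.44% of the 27025 genes with such an entry. CTTCCG lay anywhere in the 300 bases, on either strand, in 40 of 60 members (66.7%), against 18.8% of genes. TATAAA, the letters of a TATA box, was also counted anywhere in the 300 bases on either strand, so not every match need be a TATA box. It was in 7 of 60 members (11.7%) and in 15.7% of genes. The start-site CTTTC and a CTTCCG were both present in 11 members. Rpl28, Rpl35 and Rpl38 begin within or beside their pyrimidine run, while Rpl37a, Rpl36al and Rps19bp1 have CTTCCG and no CTTTC near the start. These counts describe letters in RefSeq windows and draw on one annotated start per entry. Among the members without an entry were Rps29, Rps20, Rpl21, Rpl7, Rpl29, Rpl36, Rps4l, Rpl32, Rpl17, Rpl8, Rpl23a, Rps27a, Rpl3, Rplp1 and Rps14.

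Rps15 was the highest, with a mean of 476 FPKM over the 24 libraries, followed by Rplp1 (434), Rpl41 (391), Rps14 (376) and Rps29 (359). Rpl41, one of the smallest proteins of the cell, and Rps29, a small zinc-binding protein of the small subunit, have short mRNAs, and FPKM is a level per length. The 5 lowest were Rpl37rt (3.82), Rps4l (6.07), Rps27l (13.4), Rps19bp1 (14.2) and Rpl7l1 (16.2), which are copies, paralogues or non-subunits rather than the standard proteins. The median member stood at 169 FPKM, 145 for the large and 186 for the small subunit, beside 10.5 over all tested genes.

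The 4 rows below the minimum were Rps27 (0.997 FPKM), Rpl30 (0.726), Rpl39l (0.366) and Rpl3l (0.185), next to Rpl37rt and Rps4l just above it. Rps27 and Rpl30 encode standard subunits, yet held only 3 to 18 recovered reads a library. In the GENCODE M21 transcripts, 63.1% of the 50-base windows of Rps27 and 29.8% of those of Rpl30 also occur in other genes' transcripts. Among the members the median was 41.0%, from 0 (as for Rps19bp1) to 86.7% for Rps18. How the authors' counting treated reads that match several genes is not stated, so a level of a member with many such windows, and the split between near-identical copies, is uncertain.

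**Figure D1:**
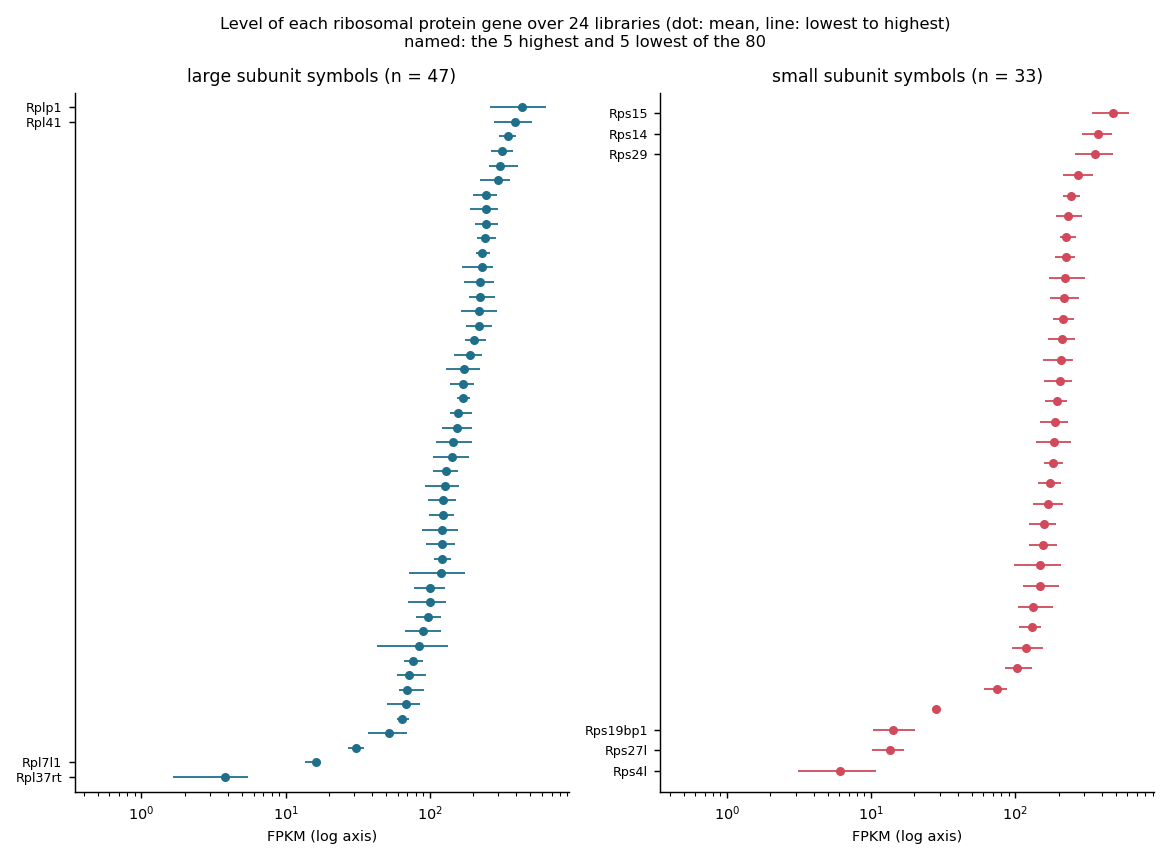
Mean FPKM of each of the 80 genes over 24 libraries (dots) with the lowest and highest library (lines), on a log axis, for the 47 large and 33 small subunit symbols. Rps15 is the highest at 476 FPKM, and the low end, where names are also given, holds Rpl37rt, Rps4l, Rps27l, Rps19bp1 and Rpl7l1.

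The stalk proteins, which recruit the elongation factors to the large subunit, differed in level and in spread, with Rplp1 the highest and Rplp0 the steadiest. Rplp0, the stalk's base, had a mean of 123 FPKM, Rplp2 120 and Rplp1 434. Within arm and sex the coefficient of variation was 5.69% for Rplp0, 17.9% for Rplp2 and 18.9% for Rplp1, while the median member had 7.37% and the median tested gene 9.76%. Rps4l (31.6%), Rpl36 (23.6%) and Rps29 (15.2%) made up the rest of the 5 most variable members. Rpsa, which encodes the small-subunit protein also known as the laminin receptor, had a mean of 189 FPKM and a coefficient of 6.12%.

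Paralogues differed from the member they are named after, with levels compared per length. Rpl22l1 (68.5 FPKM) was above Rpl22 (30.8 FPKM), the one pair of members in which the paralogue was the higher. Rpl36al had 52.4 FPKM beside 100.1 for the X-linked Rpl36a, and Rps4l had 6.07 beside 225 for the X-linked Rps4x. The Rpl37 relative Rpl37rt had 3.82 beside 128 for Rpl37, and Rpl7l1 had 16.2 beside 232 for Rpl7. Rps27l, a relative of Rps27 known as a p53 target, had 13.4 FPKM, above the 0.997 FPKM listed for Rps27 itself, whose level is uncertain for the reason given above.

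Both subunits moved together from library to library. In 22 of the 24 libraries the mean log2(FPKM + 1) of the large-subunit genes and that of the small-subunit genes lay on the same side of their own average. Untrained females were lowest: the large-subunit mean lay between 6.82 and 6.93 in WT-labelled and between 6.81 and 7.06 in KO-labelled females. Untrained males lay between 7.04 and 7.13 (WT-labelled) and between 7.08 and 7.26 (KO-labelled).

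In trained animals the same large-subunit mean was 7.01 to 7.17 in females and 7.02 to 7.37 in males. Untrained males and females did not overlap in this mean in either arm, while trained males and females did. In the small-subunit mean untrained KO-labelled female 4 (7.13) was above untrained KO-labelled male 1 (7.12), so there only the WT-labelled sexes were apart. Trained females reached levels that in the untrained arms were held by males and by 1 KO-labelled female. Library means over the members carry no test here, since the genes were picked as a set.

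**Figure D2:**
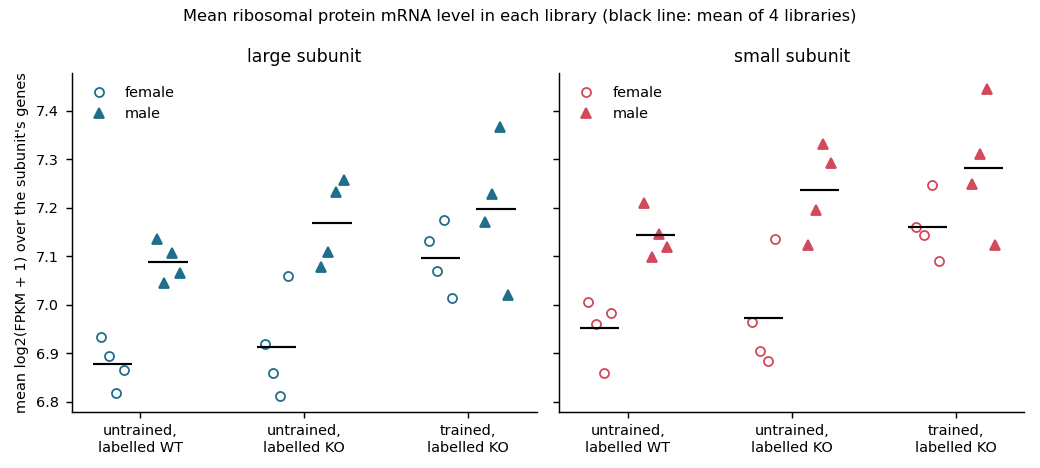
Mean log2(FPKM + 1) over the large-subunit genes (left) and small-subunit genes (right) in each library, by labelled arm and sex; open circles are females, triangles are males and black lines are means of 4 libraries. Untrained females sit lowest (large subunit 6.81 to 7.06), and trained females (7.01 to 7.17) overlap the males.

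The first comparison set the untrained arms side by side, labelled KO against labelled WT, for an effect of the genotype label at rest. No member passed the test: limma on log2(FPKM + 1) with sex as covariate called 0 of 80 at an adjusted p under 0.05, with 16 at an unadjusted p under 0.05, and limma-voom on recovered reads also called 0. Over all tested genes 1.42% were called, and 1600 of 12572 had an unadjusted p under 0.05. The median log2 change was 0.06 for the large and 0.07 for the small subunit, beside a median near 0 over all genes, and 68 of 80 members were positive.

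Rps2, a small-subunit protein at the mRNA entry, had the smallest p. It lay at 148, 185 and 208 FPKM (lowest, median, highest of 8) in the WT-labelled arm and at 143, 160 and 183 in the KO-labelled arm. All 8 KO-labelled libraries were under the WT-labelled mean, yet the ranges overlapped. Its log2 change was -0.15 (SE 0.041, limma adjusted p 0.0857), and 71.3% of its windows also occur in other genes. Without untrained KO-labelled male 3, or without WT-labelled female 3, it passed the test, with a smallest adjusted p of 0.0237. It was also called lower with an equal FPKM sum per library, quantile normalization, the correction for GC content and length, and array weights, so its call depended on the processing.

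Rps2 lies on chromosome 17, as Thbs2 does, at 24.72 Mb against 14.67 Mb (GRCm38.p6), and Tsc2, which encodes the mTORC1 inhibitor tuberin, starts at 24.60 Mb. Tsc2 was called lower in the KO-labelled arm, by a log2 change of -0.32 (limma adjusted p 3.8e-05). Of the tested genes on chromosome 17, 8.39% were called between the untrained arms, and 4.47% on chromosome 2, which carries Thbs1, against 0.797% elsewhere. None of the 7 members on chromosome 17 and the 4 on chromosome 2 passed. After Rps2, the smallest p values belonged to Rpl7l1 (log2 change 0.12, adjusted p 0.158) and Rpl18 (0.14, adjusted p 0.205).

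The second comparison, trained against untrained among KO-labelled animals, addressed operant training. Of the members 8 rose and 0 fell (limma, adjusted p under 0.05), 3 of the large and 5 of the small subunit, while over all genes 5.67% were called and 3.50% were called higher. Scaling every library to the same FPKM sum turned the split over all genes from 440 higher and 273 lower to 235 higher and 385 lower, and left 3 members higher and 0 lower. With array weights 43 members were called, and 18 when the 3 arms were fitted together. The shares of all genes called in those fits are not given here, so these counts cannot be set against them. The median log2 change was 0.12 for the large and 0.14 for the small subunit, against 0.01 over all genes, and 71 of 80 were positive.

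Rps19bp1, whose protein is also known as a partner of the deacetylase Sirt1, changed most. It lay at 10.3, 13.6 and 15.2 FPKM (lowest, median, highest) in the untrained and at 14.4, 15.9 and 20.1 in the trained KO-labelled arm. Trained females were all above untrained females, and trained males all above untrained males, although the arms as a whole overlapped. Its log2 change was 0.33 (SE 0.053, limma adjusted p 0.00252).

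Rpl36al, a large-subunit paralogue, lay at 38.4, 50.2 and 62.5 FPKM in the untrained and at 53.7, 61.0 and 69.6 in the trained arm. All 4 untrained females were below every trained library, while 3 of the 4 untrained males reached the trained range. The log2 change was 0.31 (SE 0.065, adjusted p 0.0139). These 2 genes were called in all 16 fits that each left out 1 library, and the other 6 were not.

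Rpl5 binds the 5S rRNA together with Rpl11 and, outside the ribosome, the p53 regulator Mdm2. It lay at 66.1, 69.4 and 80.6 FPKM in the untrained and at 77.0, 81.2 and 89.7 in the trained arm, for a log2 change of 0.20 (SE 0.048, adjusted p 0.0266). Of the untrained libraries, 1 female and 1 male lay inside the trained range and the other 6 lay below it. Rps3, which lines the mRNA entry and also acts in DNA repair, lay at 107, 130 and 152 FPKM in the untrained and at 136, 145 and 152 in the trained arm (log2 change 0.19, adjusted p 0.0383).

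The other called members included Rps20 (log2 change 0.22, adjusted p 0.0318), Rps24 (0.20, 0.0394) and the low Rpl37rt (0.27, 0.0497). Rps24 and Rpl5 are, in humans, among the genes mutated in Diamond-Blackfan anaemia. Rpl37rt held only 19 to 81 reads a library. With any 1 library left out, the count of called members lay between 2 (without trained female 1 or untrained female 3) and 16 (without trained male 4), and only leaving out untrained male 2 or untrained female 4 kept it within 1.5 times of 8. Without untrained male 3, the library that stood apart, it was 14.

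The animal number bore on this comparison: with a term for a number over 1000, 0 members and 0 genes of all tested were called (28 members and 1306 genes at an unadjusted p under 0.05). The medians were then 0.16 for the large and 0.18 for the small subunit, no lower than without the term. All trained animals and only 2 untrained KO-labelled animals had such a number, both of them male. In males over 1000 alone (4 trained, 2 untrained) the median member differed by 0.13 and 0 passed. At an unadjusted p under 0.05 were 13 members and 1320 of 12572 genes. Whatever the number stands for and training can hardly be told apart in these libraries.

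**Figure D3:**
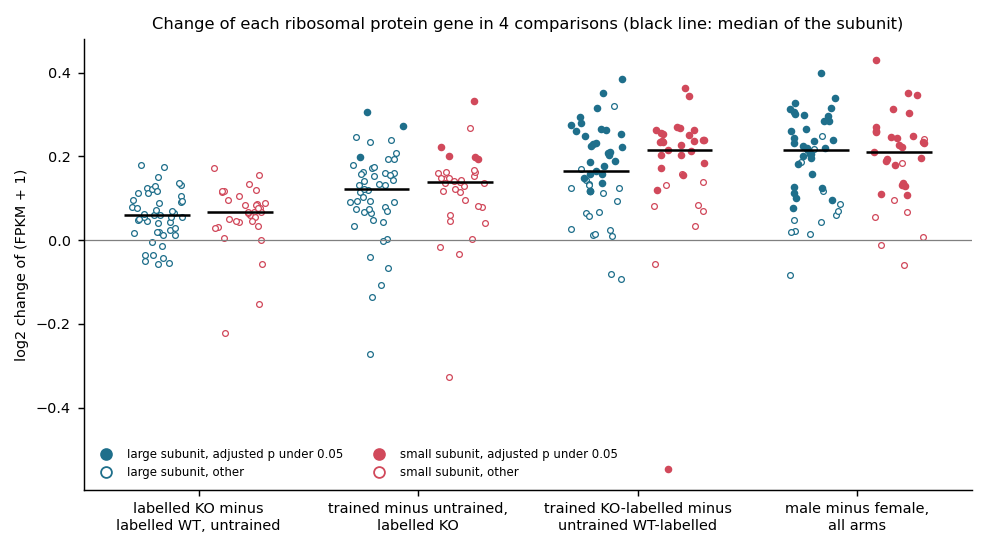
Log2 change of each of the 80 genes in 4 comparisons (limma fits of log2(FPKM + 1)); filled points have an adjusted p under 0.05, and black lines are subunit medians. Filled points number 0, 8, 53 and 59 from left to right, and Rps4l is the single one below the zero line.

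The third comparison set trained KO-labelled against untrained WT-labelled animals, which differ in both label and training. Here 52 members were higher and 1 was lower (limma, adjusted p under 0.05), against 24.5% of all genes called and 12.9% called higher. The large subunit had 28 of 47 higher and the small subunit 24 of 33 higher and 1 lower. Medians were 0.16 and 0.21 on the log2 scale, beside 0.00 over all genes. This comparison shares its arms with the other 2, so its values are not independent of theirs.

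With an equal FPKM sum per library, 47 members were higher and 1 lower, while the split over all genes went from 1626 higher and 1448 lower to 1095 higher and 2112 lower. For 6 members the arms did not overlap, with trained above WT-labelled in every library: Rpl37a, Rpl23a, Rpl17, Rpl9, Rps25 and Rpl7l1. Over all genes 1.65% were higher without overlap. Rpl17, Rpl23a and Rpl35 sit around the exit of the peptide tunnel, where chaperones and the signal recognition particle dock.

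Rpl23a lay at 147, 178 and 189 FPKM (lowest, median, highest) in the WT-labelled, at 152, 186 and 229 in the untrained KO-labelled and at 202, 214 and 221 in the trained arm. Trained libraries spanned a narrow range, all above every WT-labelled library, while 2 untrained KO-labelled males were above the highest trained library. The log2 change from WT-labelled to trained was 0.32 (SE 0.044, limma adjusted p 0.000114).

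Rpl37a, a zinc-binding large-subunit protein, lay at 130, 161 and 177 FPKM in the WT-labelled, at 129, 163 and 217 in the untrained KO-labelled and at 186, 195 and 225 in the trained arm. The widest range was that of the untrained KO-labelled arm. Its log2 change was 0.35 (SE 0.046, adjusted p 7.07e-05).

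The largest increase among subunits was that of Rpl36al (0.38, SE 0.052, adjusted p 7.68e-05), followed by Rpl37a, Rps28 (0.34, adjusted p 0.0088), Rpl23a, Rpl38 (0.29, adjusted p 0.00272) and Rpl35 (0.28, adjusted p 0.000517). Rps19bp1 changed by 0.36 (adjusted p 6.51e-05). Rpl38 is known for its part in the translation of Hox mRNAs in the mouse embryo. Of these, Rpl38 and Rpl35 have the start-site CTTTC shown above, Rpl36al, Rpl37a, Rps28 and Rps19bp1 do not, and Rpl23a has no entry.

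Rps4l, an autosomal copy of the X-linked Rps4x, was the one member lower in trained animals. It lay at 5.01, 7.38 and 10.1 FPKM in the WT-labelled, at 4.26, 5.31 and 10.7 in the untrained KO-labelled and at 3.13, 4.40 and 9.42 in the trained arm. The arms overlapped, since trained male 3 was at 9.42 while the other 7 were at 5.32 or less. The log2 change was -0.55 (SE 0.158, limma adjusted p 0.0174) between trained and WT-labelled, and -0.67 without that library. Rps4x itself changed by 0.08 (adjusted p 0.192).

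Of the stalk proteins, Rplp0 was higher in trained than in WT-labelled libraries (log2 change 0.16, SE 0.049, adjusted p 0.0251), while Rplp1 (0.07, adjusted p 0.763) and Rplp2 (0.01, adjusted p 0.95) did not pass. The Rplp0 call was lost when trained female 2 or 3, or WT-labelled female 2 or 3, was left out (highest adjusted p 0.0539), and with the correction for GC content and length (0.09, adjusted p 0.097). Rplp1 lay at 337, 394 and 488.4 FPKM in WT-labelled libraries and at 262, 463 and 645 in trained libraries, so that the trained arm held both the lowest and the highest value of all. Rpl36 had the same shape, with 43.2 to 135 FPKM in the trained arm alone. Rpsa rose by 0.24 (SE 0.048, adjusted p 0.00187).

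With a term for animal number, 0 members passed in this comparison, with 22 of all genes called. At an unadjusted p under 0.05 were 12 members and 1248 of 12572 genes. The median changes were 0.09 for the large and 0.12 for the small subunit. Only 1 WT-labelled animal had a number over 1000. Correcting each library for GC content and gene length gave 36 members higher and 4 lower (Rps2, Rpl12, Rps4l and Rpl29), with 27.6% of all genes called. For training the same correction left 7 members higher and 0 lower, 6 of them called before, with 8.24% of genes called. The median member changed by 0.06 then, against 0.13 uncorrected, and by 0.10 against 0.19 for trained against WT-labelled.

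**Figure D4:**
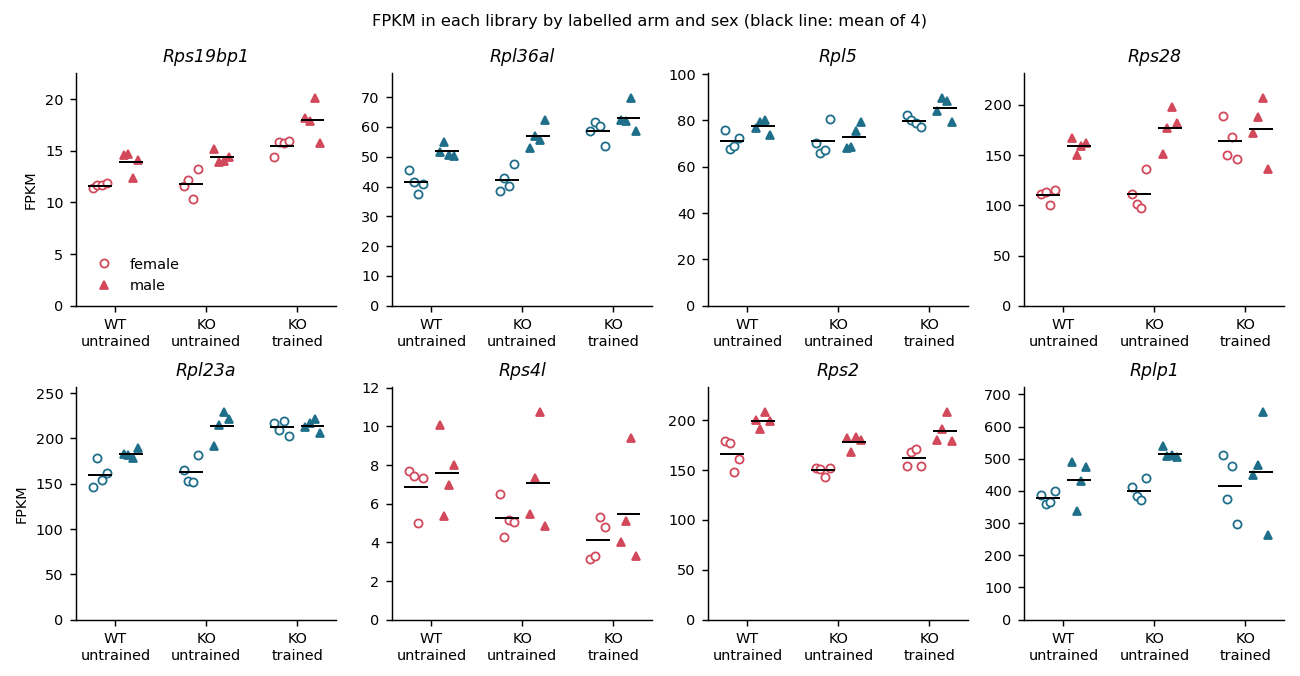
FPKM of 8 genes in each library by labelled arm and sex; open circles are females, triangles are males, black lines are means of 4, and each axis starts at 0. For Rps19bp1 every trained library is above the untrained KO-labelled libraries of its sex, while for Rpl36al the males and for Rpl5 the females overlap, Rps28 is lowest in untrained females, and Rplp1 spreads most in the trained arm, from 262 to 645 FPKM.

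Most members were higher in males than in females. With all 24 libraries and arm as covariate, 59 members were higher in males and 0 in females (limma, adjusted p under 0.05), against 28.6% of all genes called and 14.8% called higher in males. The large subunit had 34 of 47 and the small subunit 25 of 33. Medians were 0.22 and 0.21 on the log2 scale, beside 0.01 over all genes, and 77 of 80 were positive. With an equal FPKM sum per library 47 members were higher and 0 lower, while the split over all genes went from 1857 higher and 1738 lower to 972 higher and 2600 lower.

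Rps28, one of the smallest small-subunit proteins, differed most. It lay at 97.4, 114 and 189 FPKM in females and at 136, 170 and 207 in males. The ranges overlapped because trained females, at 146 to 189 FPKM, lay among the males, while 7 of 8 untrained females were at 115 or less. The log2 change was 0.43 (SE 0.081, limma adjusted p 0.000728). Other large differences were those of Rpl41 (0.40), Rps15 (0.35), Rpl28 (0.34), Rpl10a (0.31) and Rpl36a (0.31), with adjusted p between 0.000238 and 0.00105.

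Rpl28 lay at 167, 194 and 255 FPKM in females and at 238, 253 and 274 in males. Most females were below every male. The X-linked Rpl36a lay at 71.2, 87.6 and 116 FPKM in females and at 96.7, 108 and 130 in males, whereas the X-linked Rps4x was at 205, 216 and 246 against 208, 224 and 264 (log2 change 0.06, adjusted p 0.283). Among paralogues Rpl22l1 (-0.08, adjusted p 0.424) and Rps27l (-0.06, adjusted p 0.562) had the opposite sign and did not pass.

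The sex difference went with base composition over the whole transcriptome. Across the tested genes the male-minus-female log2 change and GC content had a Spearman correlation of 0.70, and that with relative length was -0.39, while across the 80 members these were 0.47 and -0.33; genes share libraries and are not independent. Members are short, with a median of 0.243 times the length of the median tested gene, and have a median GC content of 50.8% against 49.8%. With the correction for GC content and length, 24 members were higher in males and 1, Rpl29, was lower, beside 4.47% of all genes called. The median member then differed by 0.07 instead of 0.21. Rps28 (0.32, adjusted p 0.00829) and Rps20 (0.27, adjusted p 0.000213) were the largest of those that passed.

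Arm by arm, the median sex difference was higher in either untrained arm than in the trained arm. Within the untrained WT-labelled arm 46 members were higher in males and 1, Rps27l, was lower (14.5% of all genes called), with a median of 0.22. For 46 of the 80 all 4 males were above all 4 females, which held for 11.7% of all genes. Within the untrained KO-labelled arm 34 were higher and 0 lower (9.35% of genes called), the median was 0.28, and 38 did not overlap (10.1% of genes).

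Within the trained arm 0 members passed, with 0.0557% of all genes called, and the median was 0.11. At an unadjusted p under 0.05 were 7 members and 1207 of 12572 genes. The males were wholly above the females for 5 members, Rpl3, Rps2, Rps3a1, Rps27l and Rps4x, against 1.98% of genes. Still, 79 of 80 members were positive there.

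In fits of 1 sex at a time, members passed for training in females and not in males. All 4 trained females had animal numbers over 1000 and all 4 untrained KO-labelled females had numbers under 1000, so in females training and animal number cannot be told apart. In females 38 members were higher in trained than in untrained KO-labelled animals and 0 lower (15.7% of all genes called), with medians of 0.20 for the large and 0.23 for the small subunit. For 34 of 80 the 4 trained females were above all 4 untrained females, beside 11.4% of genes. The largest changes in females were those of Rps28 (0.55, adjusted p 0.0102), Rpl36al (0.47, adjusted p 0.00357), Rpl36a (0.46, adjusted p 0.0045) and Rpl37a (0.44, adjusted p 0.00258).

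In males 0 members passed, as 0% of all genes did, and the medians were 0.04 and 0.05. At an unadjusted p under 0.05 were 5 members and 1363 of 12572 genes. Without overlap, 7 members were higher in trained males (4.53% of genes): Rps19bp1, Rps3a1, Rpl22, Rpl9, Rpl5, Rps27l and Rps4x. Of these, Rps27l changed by 0.34 in males and by -0.06 in females, and Rps4x by 0.18 and -0.01. The untrained KO-labelled males include male 3, which stood apart, and the 2 animals with numbers over 1000, against which alone the median was 0.13.

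The difference between the sexes in the training change did not pass the test for any member. The interaction of training and sex called 0 of 80 members in limma (limma-voom also 0), with 0.00795% of all genes called. At an unadjusted p under 0.05 it had 21 members and 1952 of 12572 genes. Its median was -0.16, with 17 of 80 positive, and Rpl28 had the smallest adjusted p (log2 difference -0.43, SE 0.088, adjusted p 0.0673), followed by Rps9 (-0.39, adjusted p 0.0683) and Rpl23a (-0.38, adjusted p 0.094). The interaction of genotype label and sex called 0 of 80 (limma-voom also 0) and 0% of all genes. At an unadjusted p under 0.05 it had 394 of 12572 genes and 1 member. That 1 was Rpl37rt (-0.79, adjusted p 0.98).

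**Figure D5:**
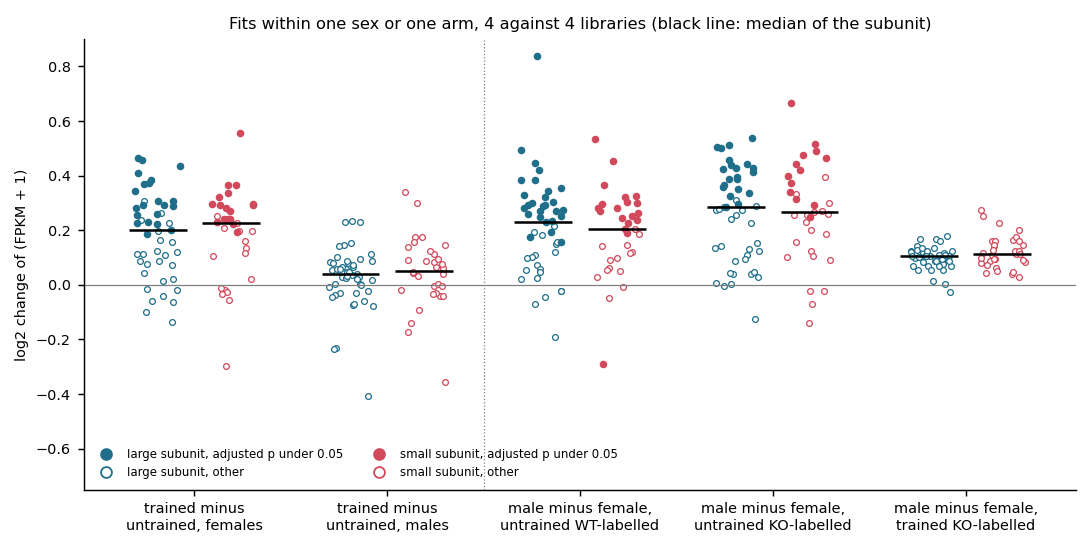
Log2 change of each gene in fits of 4 against 4 libraries: trained minus untrained KO-labelled in females and in males (left of the dotted line), and male minus female within each arm (right); filled points have an adjusted p under 0.05 and black lines are subunit medians. Training shows 38 filled points in females and 0 in males, and the sex difference shows 47, 34 and 0.

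Other genes of translation were counted over fixed lists. Ribosomal proteins that the symbol rule misses include Fau, made as a ubiquitin-like fusion, and Gnb2l1, which encodes the scaffold Rack1. Both were higher in males (log2 changes 0.28 and 0.19), and Gnb2l1 was higher in trained than in WT-labelled libraries (0.19, adjusted p 0.00214).

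Of 18 translation factors with TOP mRNAs, 2 rose with training, Tpt1 (0.24, adjusted p 0.0135) and Eef1d (0.19, adjusted p 0.025), 9 were higher in trained than in WT-labelled libraries, and 9 were higher and 2 lower in males. Of the 39 other translation factors, to be read against the same 5.67%, 24.5% and 28.6% of all genes called for training, trained against WT-labelled and sex, 4 rose with training, led by the initiation factor Eif1b (0.22, adjusted p 0.0344), 10 were higher and 2 lower in trained than in WT-labelled libraries, and 8 were higher and 11 lower in males. The median sex difference of that list was 0.00 on the log2 scale.

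The 77 mitochondrial ribosomal proteins, which build the separate ribosome of mitochondria, had smaller medians: 0.08 for training (6 higher, led by Mrpl24 with 0.30), 0.10 for trained against WT-labelled (22 higher, 2 lower) and 0.10 for sex (27 higher, 0 lower). Between untrained arms 1 of them passed, Mrps10 (0.33, adjusted p 0.000458). Of 58 ribosome biogenesis genes, whose shares called were near those over all genes for training (5.67%) and for trained against WT-labelled (24.5%), 4 rose with training, among them Nop16 and Nop2, 11 were higher and 3 lower in trained than in WT-labelled libraries, and 8 were higher and 10 lower in males.

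Of 28 genes of mTORC1 and TOP regulation, 0 passed for training (4 at an unadjusted p under 0.05), 2 were higher and 4 lower in trained than in WT-labelled libraries, and 2 were higher and 4 lower in males. In each of these comparisons the share called was below that over all genes (5.67%, 24.5% and 28.6%). For training 2989 of 12572 genes had an unadjusted p under 0.05. Between the untrained arms 1 of the 28 was called lower, Tsc2 as given above, with 1.42% of all genes called. Ddit4, a stress-induced inhibitor of mTORC1, had the largest change, -0.59 between trained and WT-labelled libraries (adjusted p 0.000301), and Rragd, a subunit of the Rag complex that recruits mTORC1 to lysosomes, changed by -0.34 (adjusted p 0.000168). Larp4 was lower in males by -0.25 (adjusted p 0.000703).

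Of the 9 cell type marker lists, only the endothelial and mural one had calls for training (1 higher and 1 lower of 10), with 5.67% of all genes called. The 10 oligodendrocyte markers had a larger median than the members there, 0.29, with 9 positive and 6 at an unadjusted p under 0.05, and 0 passed. For training 2989 of 12572 genes had such a p. That comparison includes untrained KO-labelled male 3, whose oligodendrocyte marker mean was 5.54, against 6.23 to 6.45 in the rest of its arm. Between trained and WT-labelled libraries 3 astrocyte, 1 neuron, 1 oligodendrocyte, 1 microglia, 1 endothelial and mural and 2 meningeal fibroblast markers were higher, and 1, 1, 1, 4, 2 and 0 were lower. Over all genes 24.5% were called in that comparison. The neuron (2 of 10), oligodendrocyte (2 of 10) and endothelial and mural (3 of 10) lists were near that share. The astrocyte (4 of 10), microglia (5 of 10) and meningeal fibroblast (2 of 5) lists were above it. Between the untrained arms 1 microglia marker was lower, with 1.42% of all genes called.

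Of 10 microglia markers 5 were higher and 1 lower in males, with a mean log2(FPKM + 1) of 4.06 to 4.27 in females and 4.15 to 4.42 in males. For sex 28.6% of all genes were called. For the other lists the sex comparison called 2 astrocyte and 1 septal marker lower and 1 endothelial and mural marker higher. All 8 striatal markers were positive for sex, with a median of 0.45, and negative between trained and WT-labelled libraries, with a median of -0.43, and 0 passed either test (limma, 0 at an unadjusted p under 0.05). Choroid plexus markers, and septal markers beside the 1 named, were not called in any comparison. The part of cell composition in the members' differences was not tested, and in bulk tissue fewer cells of a type and less RNA per cell cannot be told apart.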

How the data were processed

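FPKM values for 15232 genes in 24 libraries (1 per mouse, so p-values measure the spread between animals) were deposited by the authors; the column names say counts, but the values are not whole. Per the labels' protocols, RNA was extracted with TriZol and libraries were made with a stranded mRNA kit. The submitters' processing notes name FastQC 0.11.7, Trimmomatic 0.38, STAR 2.5.3a, featureCounts, Subread 1.6.3 and mm10; the annotation is not given in the sources used here. Whole reads were recovered from the FPKM steps for 15212 genes (100% of values within 0.01 read) and gave the depths. Genes averaging 1 FPKM or more were tested with limma 3.58.1 (R 4.3.3, eBayes with trend) on log2(FPKM + 1) of the deposited values, with sex or arm as covariate and Benjamini-Hochberg adjustment over all tested genes (threshold 0.05). Fold changes are on that scale and understate those of low genes. Tables and figures used Python 3.11.15, numpy 2.4.6, pandas 2.3.3 and matplotlib 3.10.9. The fit for training was also run on simulated data, with genes drawn independently and changed by more than the members were. That run does not bear on changes of the members' size.

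The members, the lists (5 of translation, 9 of markers, and the mitochondrial ribosomal proteins) and the tests were chosen with earlier results of these data known. Named were at most the 8 called members with the largest change per comparison (the 3 with the smallest p where none was called), the 5 highest, 5 lowest and 5 most variable members, Rpsa and the stalk, paralogues, members that are not subunits, and the 2 largest called genes of a list; a few others were named after their values were seen, and some genes that the rule takes are not reported here, though counts and medians include them. Alternatives were other scalings, pseudocounts and filters, array weights, limma-voom on recovered reads, a per-library correction over 20 bins of GC content and of length, animal number, a replicate block and leaving out each library. Fits within 1 sex or 1 arm were added after seeing the data.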

Additional observations from a re-analysis of the deposited data

Results flagged for a closer look

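Of 120 arm-by-gene groups of 8 libraries, 4 held a value that stood apart from the rest of its group by Dixon's criterion. At 1 in 20 groups, 6 would be expected if the groups were independent. They are not, since members move together within a library, and each group pools both sexes. The groups did not cover all of the 80 members. Trained KO-labelled male 3 held 3 of the 4 values. Its Rps4l was 9.415 FPKM, against 3.125 to 5.323 in the other 7 trained libraries. Its Rpl37a was 224.7 FPKM (others 186 to 202.2) and its Rpl35 was 185.1 FPKM (others 144.5 to 161.8). In this library all 80 members were above their own mean over the 24 libraries. Untrained KO-labelled female 4 had 246.3 FPKM of Rps4x, against 207.2 to 224.6 in the rest of its arm.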

How the results depend on the processing

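Of the comparisons' counts and medians, 356 alternative values kept within range and 43 moved, and of single genes 705 kept their call and 150 lost it. None of these changed direction, and the causes were not tested. The split over all genes did turn with an equal FPKM sum, for training, for trained against WT-labelled and for sex. With the GC and length correction Rpl12 (trained against WT-labelled) and Rpl29 (that comparison and sex) were called lower, though neither was called without it. For most fits below, member counts are given without the share of all genes called. For the untrained arms 1 member, Rps2, was called lower with an equal sum per library, quantile normalization, the GC and length correction, array weights, and that correction without KO-labelled male 3, and 0 to 1 with 1 library left out. For training the 8 calls became 3 with an equal sum, 4 with quantile normalization, 3 with limma-voom, 2 without the sex covariate, 43 with array weights, 18 when the 3 arms were fitted together, 0 with animal number as covariate, 38 in females, 0 in males and 0 in males over 1000, and 2 to 16 with 1 library left out. Between trained and WT-labelled libraries the 53 calls became 0 with animal number as covariate (small-subunit median 0.12) and 0 in males, and 49 to 62 with 1 library left out. For sex the 59 calls became 25 with the GC and length correction, 23 with it and without KO-labelled male 3, 34 in the untrained KO-labelled arm and 0 in the trained arm, and 50 to 65 with 1 library left out. The training by sex interaction gave 2 calls with quantile normalization and 14 with array weights, and 0 to 2 with 1 library left out. Same-numbered libraries are different animals and did not deviate together (mean correlations 0.0247, -0.0701 and -0.102); with a replicate block the calls were 0 between untrained arms, 0 for training (33 members at an unadjusted p under 0.05; 29 of all genes called) and 36 between trained and WT-labelled libraries. Animals under 1000 alone could not be fitted for comparisons with the trained arm, nor males over 1000 for those with the WT-labelled arm. Low depth limits Rpl37rt (19 to 81 reads) and Rps4l (52 to 291).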
